A study of Homo sapiens with 4 samples.

Results

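The genes described here are 52 genes of mitosis and the preceding G2 phase, taken from a widely used G2/M list without its tubulin gene. They were found by gene name in a count table of 60544 genes, and each name matched 1 row. The series measured poly(A) RNA from PC3, an established human prostate cancer cell line grown in RPMI-1640 medium with serum, after METTL3 knockdown and in control cells. METTL3 is the methyltransferase that places N6-methyladenosine (m6A) on messenger RNA. The control group, labelled shNC, and the other group, labelled sh812, had 2 libraries each. The series design names the knockdown, and sh812 is the only label other than shNC, so sh812 was read as the knockdown arm. The labels describe 1 cell line and 1 knockdown label, and do not say whether the cells were a pool or a clone, how long the knockdown lasted, or whether the libraries came from separate cultures. P-values therefore measure the spread between these libraries, which may be technical.

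Cells entering mitosis condense their chromosomes, attach them to a spindle of microtubules through kinetochores, and separate them once a checkpoint has been satisfied. The kinase CDK1 with its B-type cyclins starts this sequence, and the anaphase-promoting complex, a ubiquitin ligase, ends it by marking cyclin B and securin for destruction. Transcripts of these genes are made mainly in G2 and mitosis, so in a bulk library their level follows both the share of cells in these phases and the RNA made per cell. These cannot be told apart here. Many promoters of this gene class carry CCAAT boxes, which bind NF-Y, and a cell cycle genes homology region (CHR), which binds the MuvB complexes that silence the genes in quiescent cells and activate them before mitosis.

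The promoter sequences of the listed genes carried these letters often. RefSeq promoter windows, which run from 250 bases before to 50 bases after a gene's start on GRCh38.p14, were matched by symbol for 43 of the 52 genes. The CHR letters (TTTGAA, or TTTAAA as its variant), on either strand, were present in 37 of the 43 (86.0%), against 27.9% of all 27305 genes with a window and 21.8% of the 11358 tested genes with a window. The letters CCAAT, on either strand, were present in 31 of the 43 (72.1%) and at 2 or more positions in 24 (55.8%), against 39.7% and 12.9% of all genes with a window. CHR and CCAAT letters were found together in 27 of the 43 (62.8%), against 12.7% of all. S phase genes, a list of the neighbouring cell cycle phase, resembled the G2/M genes in CCAAT (24 of 32 genes, 75.0%) and had CHR letters in 9 of 32 (28.1%). The variant that reads the same on both strands was counted by position, and the CCAAT and CHR letters did not overlap in the stretches printed. A match is a description of letters and not a tested site.

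The stretches before the RefSeq start are shown for 4 of the 6 genes called higher in sh812 (defined below), the 4 that had a window. They differ in these letters. Those of CKS1B, CDC20 and LBR include 28, 26 and 30 bases that GENCODE 29 places in exons of the gene. Each stretch is printed 5′ to 3′ on the gene's strand from 200 bases before the RefSeq start. CCAAT and CHR letters, read on either strand, are in capitals. The lines give CKS2 (chr9:89310995-89311194, plus strand), CKS1B (chr1:154974481-154974680, plus strand), CDC20 (chr1:43358781-43358980, plus strand) and LBR (chr1:225428896-225429021, minus strand).
CKS2: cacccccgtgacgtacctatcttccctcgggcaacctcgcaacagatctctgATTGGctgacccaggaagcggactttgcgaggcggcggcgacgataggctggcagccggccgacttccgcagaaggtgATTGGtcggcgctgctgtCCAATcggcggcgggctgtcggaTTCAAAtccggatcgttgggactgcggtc
CKS1B: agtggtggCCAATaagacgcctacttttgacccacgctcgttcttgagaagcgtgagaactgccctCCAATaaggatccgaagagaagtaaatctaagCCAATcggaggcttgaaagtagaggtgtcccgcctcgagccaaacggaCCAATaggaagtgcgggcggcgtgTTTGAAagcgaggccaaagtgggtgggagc
CDC20: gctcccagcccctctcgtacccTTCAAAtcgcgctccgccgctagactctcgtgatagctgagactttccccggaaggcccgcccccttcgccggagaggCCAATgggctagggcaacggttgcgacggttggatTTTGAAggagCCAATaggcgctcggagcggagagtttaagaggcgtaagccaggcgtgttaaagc
LBR: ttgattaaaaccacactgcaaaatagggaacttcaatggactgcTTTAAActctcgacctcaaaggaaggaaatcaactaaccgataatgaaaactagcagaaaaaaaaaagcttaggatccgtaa
CKS2 and CKS1B each had 1 CHR match in the window, starting 29 and 30 bases before the start. They had 3 and 5 CCAAT matches, the nearest starting 52 and 54 bases before the start. The farthest of CKS1B, 231 bases before the start, lies outside the printed stretch. CDC20 had 2 CHR matches, starting 178 and 65 bases before the start, and 2 CCAAT matches. LBR had 1 CHR match, 156 bases before the start, and no CCAAT in its window. SMC4, the gene that was lower, had 2 windows, and the first was read here. That window had 1 CHR match and no CCAAT. Its stretch begins at 160399450, past the GENCODE 29 start of the gene (160399274, plus strand). The SMC4 letters therefore do not describe bases upstream of that start.

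Total counts ran from 31450648 to 37041330 per library. METTL3, the targeted gene, was counted 1682 and 1379 times in shNC and 269 and 313 times in sh812, a log2 fold change of -2.42. The exons of TOX4, on the opposite strand, overlap 6.58% of its exonic bases. The 4 epithelial markers EPCAM, KRT8, KRT18 and KRT19 summed to 30538 and 28777 counts in shNC and 33066 and 35762 in sh812. Of these, EPCAM and KRT18 were higher in sh812, by 0.45 and 0.30 on the log2 scale (edgeR, adjusted p = 0.000128 and 0.00793), both above the largest rise among the G2/M genes (0.27, ANP32E). KLK3 and KLK2, targets of the androgen receptor, had 0 counts in every library. Of the endothelial markers, VWF and CDH5 had 6 counts or fewer, and PECAM1 had 902 and 748 counts in shNC and 1156 and 1379 in sh812. The 5 fibroblast markers, mostly COL1A1, summed to 1729 and 1530 counts in shNC and 1243 and 1486 in sh812. Of these, COL3A1 had 111 and 125 counts in shNC and 45 and 40 in sh812 (log2 fold change -1.51, adjusted p = 0.00131 in edgeR). None of the others had an adjusted p under 0.05, and of them only LUM lay above 0 (0.30). The part of all these markers in the results was not tested.

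Of the 52 genes, 51 passed the low-count filter. NUSAP1, which bundles spindle microtubules, did not: it had 6, 2, 3 and 9 counts, while the other 51 had mean levels from 22.97 to 408 CPM (counts divided by the TMM-adjusted library size and scaled to a fixed total). In GENCODE 29, the gene model AC087721.2 covers 62.2% of the exonic bases of NUSAP1 on the same strand, and it had 0 counts. The part of this overlap in the low count was not tested, and no level of NUSAP1 is read from it.

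At this depth most G2/M transcripts differed little between the groups. The 7 that passed the threshold given below differed by 14.4% to 22.3%. That range also held CCNB2 (14.6%), PIMREG (14.5%) and CENPE (-15.2%), which did not pass. ANP32E, CDC20, CKS2, LBR, CKS1B and UBE2C rose in sh812, and SMC4 fell. These 7 passed the threshold of 0.05 on the adjusted p (edgeR, quasi-likelihood; Benjamini-Hochberg over the 16802 genes tested), which is what "called" means below. Of all genes tested 10.8% were called, 5.43% higher and 5.42% lower, against 6 of 51 members higher (11.8%) and 1 of 51 lower (1.96%). Among the 6930 genes in the members' own range of mean CPM, 8.73% were called in the higher direction and 8.35% in the lower (17.1% in all). Scaling by library size alone left 2 members higher (ANP32E and CDC20) and SMC4 lower, while the whole table split into 561 genes higher and 1328 lower, against 912 and 910 with TMM. The share of members called higher lay near that of genes with similar levels. The median log2 fold change of the 51 members was 0.056, with 32 above and 19 below 0, beside -0.0056 over all genes tested and 0.0099 over the 6930. Both sh812 libraries lay above both shNC libraries in 22 members (43.1%) and below them in 4 (7.84%), while the groups overlapped in 25. Over all genes tested these shares were 26.2% and 27.4% (53.6% in all), and over the 6930 genes 33.4% and 29.2% (62.6% in all).

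**Figure D1:**
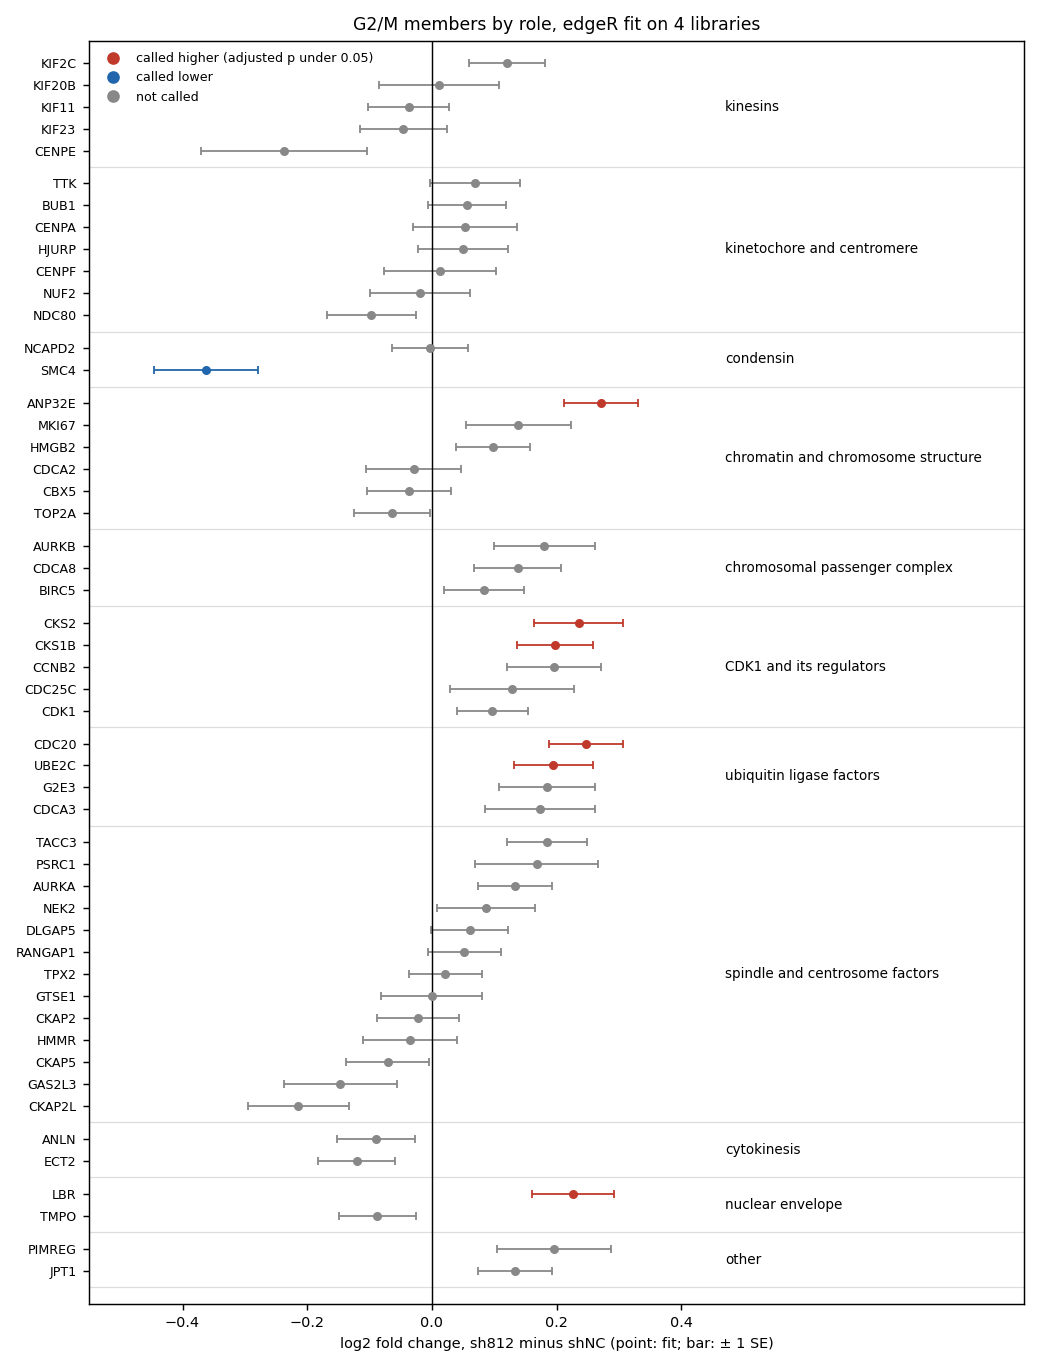
Log2 fold change (sh812 minus shNC, x axis) of the 51 members tested, grouped by role (labels at right). Points are edgeR fits on 2 libraries per group, bars are ± 1 standard error, and colour marks the 6 members called higher and SMC4, called lower; the CDK1, ubiquitin ligase, chromosomal passenger and other groups lie wholly to the right of 0.

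The kinesins, motor proteins that build the spindle and move chromosomes along it, had 0 of 5 members called, beside 10.8% of all genes tested. KIF11, which slides antiparallel microtubules apart to make the spindle bipolar, was at 108 and 107 CPM in shNC and 108 and 102 CPM in sh812. KIF2C, a microtubule depolymerase that corrects wrong attachments, was at 124 and 123 CPM in shNC and 134 and 135 CPM in sh812. Both sh812 libraries were higher for KIF2C, by 0.12 on the log2 scale (adjusted p = 0.228 in edgeR), and those of KIF11 overlapped the controls (log2 fold change -0.037, adjusted p = 0.785). KIF23, the centralspindlin motor of cytokinesis, was at 97.6 and 87.1 CPM in shNC and 89.8 and 89.3 CPM in sh812. KIF20B, which also acts in cytokinesis, was at 40.9 and 33.6 CPM in shNC and 40.1 and 35.1 CPM in sh812. In both genes the sh812 libraries lay between the shNC libraries, at -0.046 and 0.011 on the log2 scale (edgeR, adjusted p = 0.750 and 0.964). CENPE, the kinetochore motor that brings chromosomes to the metaphase plate, was at 46.0 and 28.1 CPM in shNC and 32.8 and 30.3 CPM in sh812. Its difference of -0.24 on the log2 scale (SE 0.13, adjusted p = 0.282 in edgeR) turned on the control library used, and was 0.16 without that library and -0.54 without shNC replicate 2.

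The kinetochore and centromere genes had 0 of 7 members called, beside 10.8% of all genes tested. Their log2 fold changes ran from -0.097 to 0.069. NDC80 and NUF2 are 2 subunits of the complex that grips microtubule ends. NDC80 was at 83.0 and 76.0 CPM in shNC and 76.7 and 72.1 CPM in sh812, and NUF2 at 46.0 and 43.2 CPM and at 44.5 and 43.6 CPM. The groups overlapped in both, at -0.097 and -0.019 on the log2 scale (edgeR, adjusted p = 0.433 and 0.922). The checkpoint kinases BUB1 and TTK, which hold anaphase back until attachment is complete, differed by 0.056 and 0.069 on the log2 scale (edgeR, adjusted p = 0.640 and 0.613). CENPA, the histone H3 variant that marks centromeres, was at 41.2 and 38.3 CPM in shNC and 42.7 and 39.7 CPM in sh812. HJURP, the chaperone that deposits CENPA, was at 76.6 and 73.4 CPM in shNC and 82.1 and 73.2 CPM in sh812. Both overlapped between groups, at 0.053 and 0.050 on the log2 scale (edgeR, adjusted p = 0.762 and 0.736). CENPF, a large coiled-coil protein of the outer kinetochore, was at 167 and 121 CPM in shNC and 148 and 142 CPM in sh812. The sh812 values of CENPF lay between the shNC values (log2 fold change 0.013, adjusted p = 0.952 in edgeR). With 1 control library at a time its log2 fold change was 0.27 (without shNC replicate 1, adjusted p = 0.000404) and -0.19 (without shNC replicate 2, adjusted p = 0.00677), so both directions were called in edgeR.

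**Figure D2:**
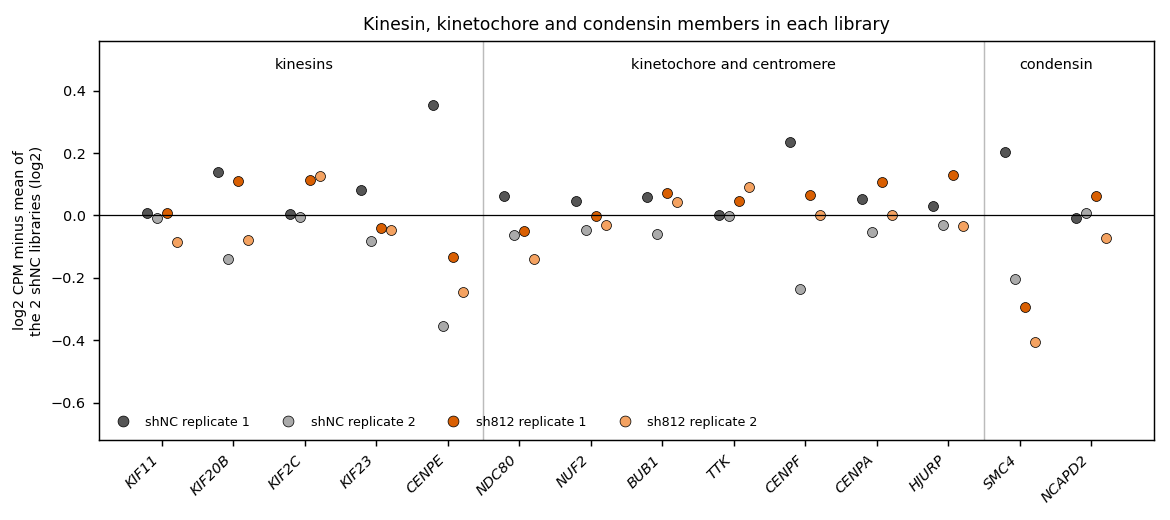
Level of each kinesin, kinetochore and condensin member in each library (log2 CPM minus the mean of the 2 shNC libraries, y axis). Points are single libraries; the shNC libraries of CENPE, CENPF and SMC4 lie far apart, and both sh812 libraries of SMC4 lie below both shNC libraries.

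Condensin, the ring complex that compacts mitotic chromosomes, had 2 members. SMC4, the ATPase subunit shared by both condensin complexes (chromosome 3, 160399274 to 160434962 in GENCODE 29 on GRCh38, plus strand), was at 292 and 220 CPM in shNC and 207 and 191 CPM in sh812. It fell by 0.36 on the log2 scale (SE 0.08, adjusted p = 0.00594 in edgeR), and both sh812 libraries lay below both shNC libraries. The shNC libraries differed from each other by -0.40 (replicate 2 minus replicate 1, log2). Without shNC replicate 1 the log2 fold change was -0.15 (adjusted p = 0.0633 in edgeR), and DESeq2 on all 4 libraries gave -0.36 with an adjusted p of 0.269. TRIM59, on the opposite strand, overlaps 18.5% of the exonic bases of SMC4, and its own log2 fold change was 0.13 (adjusted p = 0.348 in edgeR). NCAPD2, a subunit of condensin I, was at 195 and 197 CPM in shNC and 205 and 186 CPM in sh812, a log2 fold change of -0.0031 (adjusted p = 0.986 in edgeR). Of the 6 other condensin genes (SMC2, NCAPG, NCAPH, NCAPD3, NCAPG2 and NCAPH2) 0 were called. Without adjustment, 1 of them, NCAPH2, was higher at p under 0.05 and none was lower. NCAPH2 (0.28, adjusted p = 0.0575 in edgeR), named after its value was seen, lay close to the threshold, and 1 condensin gene was called higher with limma-voom and with either other filter on low counts. SMC2, the partner ATPase of SMC4, was at -0.018 on the log2 scale (adjusted p = 0.924 in edgeR).

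CDK1 and its regulators were higher in sh812 in all 5 members by value. The groups did not overlap in any of them, while 33.4% of the 6930 genes of similar level lay apart in this direction. Of the 5 members 2 were called, beside 8.73% of those 6930 genes called higher. CKS2 and CKS1B, small subunits that help CDK complexes bind phosphorylated substrates, were the 2. CKS2 (chromosome 9, 89311198 to 89316703) was at 63.6 and 68.5 CPM in shNC and 79.2 and 76.2 CPM in sh812, and rose by 0.24 on the log2 scale (SE 0.07, adjusted p = 0.0325 in edgeR). CKS1B (chromosome 1, 154974653 to 154979249) was at 167 and 175 CPM in shNC and 203 and 190 CPM in sh812, and rose by 0.20 (SE 0.06, adjusted p = 0.0375 in edgeR). The kinase gene CDK1 itself was at 359 and 361 CPM in shNC and 383 and 387 CPM in sh812. CDK1 had the smallest difference of the group, 0.097 on the log2 scale (adjusted p = 0.30 in edgeR). The B-type cyclin CCNB2 and the activating phosphatase CDC25C differed by 0.20 and 0.13 (edgeR, adjusted p = 0.0962 and 0.465). With the trend on transcript length and GC content removed, as described below, the 5 members ran from 0.039 (CKS1B) to 0.12 (CCNB2). Their adjusted p in edgeR then ran from 0.270 to 0.718.

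All 4 ubiquitin ligase factors also had both sh812 libraries above both controls, with 2 called, beside the same shares among genes of similar level. CDC20, the activator of the anaphase-promoting complex and the target of the spindle checkpoint (chromosome 1, 43358955 to 43363203), was at 213 and 226 CPM in shNC and 262 and 259 CPM in sh812. It rose by 0.25 on the log2 scale (SE 0.06, adjusted p = 0.00771 in edgeR). UBE2C, the ubiquitin-conjugating enzyme of that complex (chromosome 20, 45812576 to 45816957), was at 172 and 191 CPM in shNC and 212 and 204 CPM in sh812. It rose by 0.19 (SE 0.06, adjusted p = 0.0471 in edgeR), with shNC libraries that differed by 0.15. CDCA3, an adaptor for ubiquitin ligation, had the smallest difference of the group, 0.17 (adjusted p = 0.226 in edgeR), and the ligase G2E3 had 0.18 (adjusted p = 0.127). Gene copies named after CDC20 and CKS1B held 1.13% and 0.543% as many counts as the genes themselves.

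Chromatin and chromosome-structure genes had 1 of 6 members called. ANP32E, a chaperone that removes the histone variant H2A.Z (chromosome 1, 150218417 to 150236156, minus strand), was at 204 and 192 CPM in shNC and 241 and 238 CPM in sh812. It rose by 0.27 on the log2 scale (SE 0.06, adjusted p = 0.00425 in edgeR), the largest rise among the 51 members. TOP2A, the topoisomerase that untangles sister chromatids, had the lowest value of the group, -0.064 (adjusted p = 0.569 in edgeR). MKI67, which encodes the proliferation antigen Ki-67 that coats mitotic chromosomes, was at 189 and 142 CPM in shNC and 188 and 176 CPM in sh812. The shNC libraries of MKI67 enclosed the sh812 libraries, and its log2 fold change was 0.14 (adjusted p = 0.325 in edgeR).

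Of the nuclear envelope genes, LBR, the lamin B receptor that anchors heterochromatin at the inner membrane (chromosome 1, 225401502 to 225428925, minus strand), was called. It was at 104 and 96.9 CPM in shNC and 120 and 114 CPM in sh812, and rose by 0.23 on the log2 scale (SE 0.07, adjusted p = 0.0267 in edgeR). TMPO, which encodes lamina-associated polypeptide 2, had -0.087 (adjusted p = 0.407 in edgeR).

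**Figure D3:**
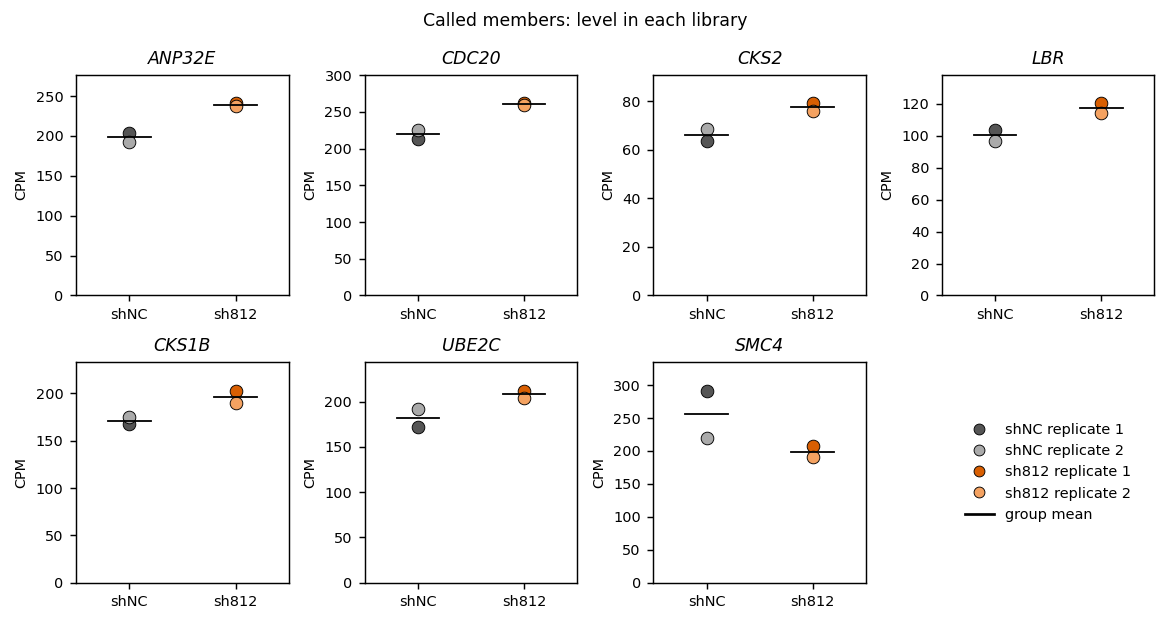
Level (CPM, y axis from 0) of the 7 called members in each library. Points are libraries and lines are group means of 2 libraries; in each panel the groups do not overlap, and the shNC libraries of SMC4 are the most widely spaced.

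The other groups had no member called, beside 10.8% of all genes tested. In the chromosomal passenger complex, which corrects attachments and guides cytokinesis, the kinase AURKB had the highest log2 fold change, 0.18 (adjusted p = 0.165 in edgeR). BIRC5, which encodes survivin, had the lowest, 0.083 (adjusted p = 0.465). Of the 14 spindle and centrosome genes 13 were tested, with 7 above and 6 below 0. TACC3, which crosslinks spindle microtubules with clathrin, had the highest value, 0.18 (adjusted p = 0.0662 in edgeR), and CKAP2L the lowest, -0.21 (adjusted p = 0.0885). AURKA and its activator TPX2, the kinase pair of spindle assembly, had 0.13 and 0.021 (adjusted p = 0.161 and 0.874 in edgeR). Of the cytokinesis genes, ECT2 had -0.12 and the ring scaffold ANLN -0.090 (adjusted p = 0.228 and 0.399 in edgeR). PIMREG and JPT1, placed in no role group, had 0.20 and 0.13 (adjusted p = 0.183 and 0.164 in edgeR). Standard errors of the 51 members ran from 0.056 (CDK1) to 0.13 (CENPE).

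Per exonic length, in TPM (length-scaled abundance) computed here from GENCODE 29 gene models, the most abundant members were UBE2C (579), CDC20 (450) and CKS2 (448), as means over the 4 libraries. The least abundant of those tested were CENPE (14.0), GAS2L3 (18.0), an actin and microtubule linker, and CBX5 (19.95), which encodes heterochromatin protein HP1 alpha. By this length-scaled measure the 3 most abundant members were all among the 6 called higher. In CPM, which is not scaled by length, the highest members were BIRC5, TPX2 and CDK1 (shNC means of 397, 378 and 360). None of these was called.

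Longer members had lower differences, both between the groups and between the control libraries. Lengths are those of the principal GENCODE 29 transcript. Across the 51 members, the Spearman correlation of length with the sh812 minus shNC difference was -0.57, and with the difference between shNC replicate 2 and replicate 1 it was also -0.57. It was -0.085 for the difference between the sh812 replicates. Without shNC replicate 1 the correlation with the sh812 minus shNC difference was -0.25, and without shNC replicate 2 it was -0.67. Over the 12254 genes of the whole table compared in this way it was -0.34. These correlations are across genes that share the same libraries and describe those libraries. In the 17 shortest members (613 to 2172 bases) 15 log2 fold changes were above 0, with a median of 0.17, and 4 members were called higher. In the 17 longest (3731 to 12678 bases) 6 were above 0 and 11 below, with a median of -0.037. The shNC replicate 2 minus replicate 1 medians of these sets were 0.016 and -0.17.

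With each library's trend on transcript length and GC content removed, 5 members were called higher and 1 lower, of which 3 and 1 were also called without the correction. ANP32E, CDC20, LBR and SMC4 were called both ways, at corrected values of 0.30, 0.19, 0.26 and -0.28 on the log2 scale (edgeR, adjusted p = 0.000462, 0.0181, 0.00376 and 0.0109). The short transcripts CKS2, CKS1B and UBE2C were not called after the correction, at 0.064, 0.039 and 0.053 (adjusted p = 0.581, 0.718 and 0.586 in edgeR). The long transcripts G2E3 and MKI67 were called higher after it, at 0.27 and 0.24 (adjusted p = 0.00899 and 0.0254 in edgeR). Corrected values were above 0 in 37 of the 51 members, with a median of 0.062. Over all genes tested, 5.16% were called higher and 5.17% lower with this correction.

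**Figure D4:**
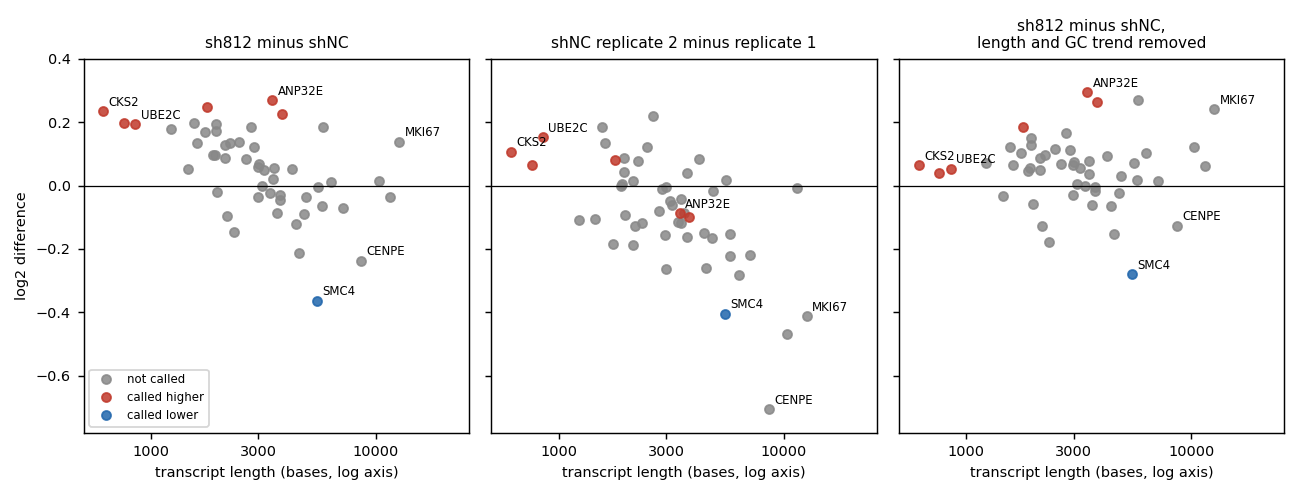
Log2 difference (y axis) of the 51 members against transcript length (x axis, bases, log scale) for sh812 minus shNC (left), shNC replicate 2 minus replicate 1 (middle) and sh812 minus shNC with the length and GC trend removed (right). Points are genes, coloured by the call on uncorrected data; the downward slope of the left panel is also present between the 2 control libraries, with a Spearman correlation of -0.57 in each.

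The calls also depended on which libraries entered the fit. A fit without 1 library leaves a group with a lone sample, which is assumed to vary like the others. Without shNC replicate 1, 8 members were called higher and 0 lower, including 4 of the 6 (ANP32E, CDC20, CKS1B and LBR), beside 930 genes higher and 915 lower in the whole table. UBE2C was at 0.12 in that fit. Without shNC replicate 2, 11 were called higher, including all 6, and 8 lower, while the whole table rose to 1703 genes higher and 1549 lower. Without sh812 replicate 1 or 2, 0 were called higher and SMC4 alone was called lower, while the genes called in the whole table dropped from 1822 to 587 and 682.

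Other genes of mitosis, from lists by role, had 10 of 101 tested genes called higher (9.90%) and 3 lower (2.97%). Over all genes tested these shares were 5.43% and 5.42%. The median log2 fold change of these other genes was 0.043. Of the 9 other mitotic kinesins 1 was called: KIF20A, which acts in cytokinesis, rose by 0.20 (adjusted p = 0.0447 in edgeR). Of the 36 other kinetochore, centromere and checkpoint genes tested, 4 were called higher and 1 lower. SPC24, another subunit of the NDC80 complex, rose from 18.5 and 15.7 CPM to 22.6 and 23.0 CPM (log2 fold change 0.42, adjusted p = 0.0139 in edgeR). ZWINT rose by 0.21, CENPH by 0.36 and CENPM by 0.35 (adjusted p = 0.0180, 0.0207 and 0.0334 in edgeR). BUB3, a checkpoint protein, fell by 0.20 (adjusted p = 0.0407 in edgeR), and is named after its value was seen. CENPH, CENPM and BUB3 were not called with the length and GC trend removed, at 0.27, 0.20 and -0.10. ZWILCH and MAD2L1 of the same list were called higher after it, at 0.22 in each, so 4 were again called higher.

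Among the 11 other mitotic cyclins and kinases 2 were called, the CDK-activating phosphatases CDC25A and CDC25B, which rose by 0.30 and 0.21 (adjusted p = 0.00882 and 0.0283 in edgeR). Of the 11 regulators of mitotic transcription, MYBL2, the B-MYB subunit that joins MuvB to activate these genes, rose from 214 and 236 CPM to 278 and 273 CPM (0.29, adjusted p = 0.0027 in edgeR). RBL2, the p130 pocket protein of the repressive MuvB complex, fell from 32.0 and 26.8 CPM to 20.3 and 23.0 CPM (-0.44, adjusted p = 0.00747 in edgeR). FOXM1, the other activator of G2/M genes, had 0.046 (adjusted p = 0.703 in edgeR). It is named for its role, after its value was seen. Of the 17 anaphase-promoting complex genes, CDC26 and ANAPC11 rose by 0.40 and 0.30 and CDC23 fell by 0.37 (adjusted p = 0.0150, 0.0199 and 0.00211 in edgeR). CDC26 was not called with the length and GC trend removed (0.26, adjusted p = 0.110). ANAPC11, at 78.1 and 99.8 CPM in shNC, was at 0.13 without shNC replicate 1 (adjusted p = 0.229 in edgeR) and 0.49 without shNC replicate 2. Of the 11 cohesin and separase genes 0 were called, with a median of -0.12. Without adjustment, 1 had a higher and 4 a lower level at p under 0.05. With limma-voom, upper quartile factors or no filter 1 was called lower, with library size alone or a mean CPM of at least 1 there were 2, and without shNC replicate 2 there were 4. With the length and GC trend removed 0 were called and the median was -0.027.

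For comparison, the S phase list had 8 of 43 genes called higher (18.6%) and 0 lower, beside 5.43% and 5.42% of all genes tested. The median log2 fold change of the S phase list was 0.12, against 0.056 for the G2/M members. The difference between the lists was not tested. The S phase calls with the smallest p-values were UNG, HELLS, MCM6 and FEN1, which rose by 0.41, 0.47, 0.28 and 0.23 on the log2 scale (edgeR, adjusted p = 8.37e-05, 0.0021, 0.00359 and 0.0161). With the length and GC trend removed, PCNA, PRIM1 and NASP lost their calls (adjusted p = 0.239, 0.0935 and 0.167 in edgeR). MCM2, DTL and POLA1 were called higher only after it (adjusted p = 0.0409, 0.00961 and 0.0279 in edgeR).

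**Figure D5:**
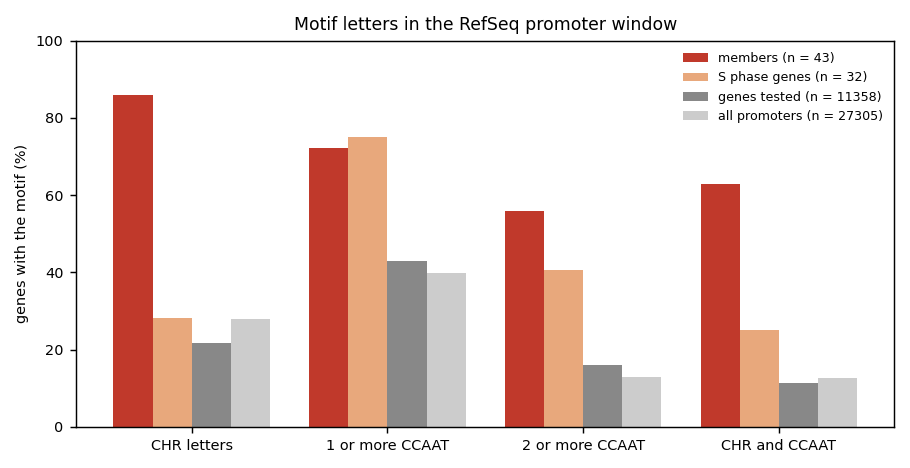
Share of genes (%, y axis from 0) whose RefSeq promoter window of 300 bases holds CHR letters, 1 or more CCAAT, 2 or more CCAAT, or CHR and CCAAT together, for the 43 G2/M members, 32 S phase genes, 11358 tested genes and all 27305 genes with a window. Bars are single shares with no replicate; CHR letters were present in 86.0% of the members and 28.1% of the S phase genes.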

How the data were processed

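Poly(A) RNA libraries from PC3 cells were sequenced as paired reads of 150 bp, per the labels' protocols. The authors deposited raw read counts per gene for 4 libraries. The submitters' processing notes name fastp, STAR 2.7.1a, featureCounts, DESeq2 and the build hg38, with no role or order. The protocol marks strand with dUTP, but the annotation release and whether counting used strand are not given in the sources used here, so overlapping and antisense genes may share reads. The test was edgeR 4.0.16 under R 4.3.3 (filterByExpr, TMM, glmQLFit and glmQLFTest, all 4 libraries, no covariate), with Benjamini-Hochberg adjustment over 16802 genes and a threshold of 0.05. Standard errors derive from the F statistic. Positions, lengths and overlaps come from GENCODE 29 (GRCh38) by Ensembl identifier, and promoters from RefSeq (GRCh38.p14). Trends on length and GC were lowess curves (span 0.3) used as offsets. The fits were tested on simulated counts.

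Replicate pairs had a chi-square per gene of 8.43 (shNC) and 4.51 (sh812), above sampling noise. Each library was counted as a replicate, though such spread may be technical and does not show separate cultures. Alternatives were other size factors (RLE, upper quartile, library size), other filters, DESeq2 1.42.0, limma-voom 3.58.1, the replicate block, trend removal, a prior count of 2 in place of 0.125 and leaving out each library. Named were the called members, all kinesin, kinetochore and condensin members, the extremes of the other role groups, the 3 highest and 3 lowest members by level per length, up to 4 called genes per companion list by p, and METTL3. Further genes were picked with their values known. The members and lists were chosen with earlier results of these data known.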

Additional observations from a re-analysis of the deposited data

How the results depend on the processing

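The number of members called higher was 6 and lower 1 with RLE and upper quartile factors, both other filters, the replicate block and limma-voom. With library size alone it was 2 higher and 1 lower, and the members' median log2 fold change was 0.011, with the median of all genes at -0.050. CKS1B, CKS2, UBE2C and LBR were the calls lost there. DESeq2 called 0 members lower. Without each library in turn, the calls ran from 0 to 11 higher and from 0 to 8 lower. The median had its lowest value, 0.0077, when shNC replicate 2 was left out and its highest, 0.094, when shNC replicate 1 was, and METTL3 lay between -2.52 and -2.33. Replicate numbers 1 and 2 recur in shNC and sh812, and no label ties a number to a shared day or batch. Deviations of same-numbered libraries had a correlation of 0.016 across genes, so no pairing was assumed. With the replicate block, 6 members were called higher and 1 lower, the same genes, with a median of 0.057, and METTL3 was at -2.42. In the companion lists the block added 4 calls, NCAPH2 higher and STAG2, CDKN1A and CCNE2 lower (adjusted p = 0.0338, 0.0433, 0.0357 and 0.0439 in edgeR), and removed none. Values that changed sign belonged to genes with no call in the fit of all 4 libraries. With the length trend alone, or the length and GC trend, removed, they were CBX5 (0.059 and 0.062), CENPA (-0.033 both ways), KIF11 (0.021 and 0.030), NCAPD2 (0.067 and 0.071), TOP2A (0.0097 and 0.019), CKAP5 (0.015 both ways) and GTSE1 (0.0011 and 0.0044), and, outside the members, SMC2 (0.060 and 0.070). With library size alone they were CENPF (-0.034), KIF20B (-0.035) and TPX2 (-0.024). With RLE factors and DESeq2 they were NCAPD2 (0.00057 in each) and GTSE1 (0.0033 in each), and with upper quartile factors GTSE1 (2.36e-05). Leaving out libraries gave ranges on both sides of 0 for BIRC5 (-0.023 to 0.20), CENPE (-0.54 to 0.16), CENPF (-0.19 to 0.27), HJURP (-0.033 to 0.13), KIF11 (-0.083 to 0.0070), KIF20B (-0.12 to 0.16), KIF23 (-0.12 to 0.040), NCAPD2 (-0.071 to 0.062), NUF2 (-0.058 to 0.029), TOP2A (-0.13 to 0.015), MKI67 (-0.046 to 0.36), HMMR (-0.16 to 0.10), DLGAP5 (-0.0095 to 0.14), CKAP5 (-0.17 to 0.043), CKAP2 (-0.073 to 0.037), TPX2 (-0.032 to 0.073), CDCA2 (-0.096 to 0.034) and GTSE1 (-0.050 to 0.047), and for SMC2 (-0.15 to 0.14). For each of these, the cause was not tested. With 2 libraries per group, no exact permutation or rank test of 1 gene can give a 2-sided p under 0.333.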

Other observations

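The letters GGACT, a frequent context of m6A on messenger RNA, were counted in the principal transcript of each gene. The median was 0.664 per 1000 bases in the 51 members tested and 0.920 in the 16627 tested genes with a transcript. The 6 members called higher had a median of 0.571, and CKS2 and CKS1B had 0 matches in their transcripts of 613 and 759 bases. Across the 51 members the Spearman correlation of this density with the log2 fold change was 0.060, a description across genes that share the same libraries. A count of letters does not show that a transcript is methylated.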
